A study of Homo sapiens with 36 samples.

Results

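The 9 genes described here encode integrin subunits that bind proteins of the extracellular matrix. They were selected by name among the 60725 Ensembl genes of the tables and comprise 4 alpha subunits (ITGA1, ITGA2, ITGA5 and ITGAV) and 5 beta subunits (ITGB1, ITGB3, ITGB5, ITGB6 and ITGB8). The other 17 of the 26 human integrin genes served as a reference list. Of the 9, 6 held at least 10 counts in all 36 libraries. ITGB8 did so in 27 libraries, ITGB6 in 23 and ITGB3 in 12, and ITGB3 was listed at 0 in 7.

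An integrin is a receptor made of 1 alpha and 1 beta subunit, and the pair decides which matrix protein is bound. Subunits alpha 1 and alpha 2 pair with beta 1 and bind collagens, and alpha 5 pairs with beta 1 and binds fibronectin. Subunit alpha v pairs with beta 1, beta 3, beta 5, beta 6 or beta 8, and these receptors bind vitronectin, fibronectin or the latent form of TGF-beta. In epithelium beta 6 is known for its rise in wounded and malignant tissue and, like beta 8, for the activation of latent TGF-beta. Inside the cell, many beta subunits, though not all, recruit talin and kindlin and signal through focal adhesion kinase and Src.

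The 36 sequenced RNA libraries came from 2 human breast cell lines and fell into 18 groups of 2. ER-Src cells are MCF-10A mammary epithelial cells that carry v-Src fused to the estrogen receptor's hormone-binding domain, so that tamoxifen (TAM) activates the oncoprotein, and ethanol (ETH) was the vehicle. They received a control siRNA (Ctrli) or siRNA pools against YAP (YAPi), TAZ (TAZi), STAT3 (STAT3i) or JUNB (JUNBi), each under ETH and TAM, which gave 10 groups. The labels give tamoxifen at 0.4 to 1 µM together with AZD0530, a Src family kinase inhibitor, at 2 to 4 µM for the transforming treatment. The study's methods name a short and a long time under TAM for knockdown experiments, and which applied to these libraries is not given in the sources used here. The MDA-MB-231 line derives from a triple-negative breast cancer. Its set 1 held Ctrli, YAPi, TAZi, both together (YAPi_TAZi) and TEADi, directed at TEAD proteins that are not listed one by one, and its set 2 held its own Ctrli, JUNBi and STAT3i. Nothing states that the 2 libraries of a group came from separate cultures, so p-values measure the spread between these libraries, which may be technical.

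The libraries held 6419720 to 19161700 expected counts in ER-Src, 13456784 and 13534560 in the set 1 controls, 1411304 to 2784605 in the set 1 knockdowns and 7290499 to 18076158 in set 2. Each of the 4 targeted genes was lower in its own ER-Src knockdown, by log2 fold changes of -1.16 to -2.66, and the smallest of these, JUNB under ETH, missed the threshold (adjusted p by DESeq2 = 0.064). In set 1, against the other knockdowns, YAP1 was at -1.94 in both YAPi and YAPi_TAZi, and WWTR1, the gene of TAZ, at -2.96 in TAZi and -1.36 in YAPi_TAZi. With TEADi, TEAD1 was at -1.22 and TEAD2 at -3.41, while TEAD3 was at -0.25 and was not called. TEAD4 held 0 and 1 counts with TEADi and 7 to 21 in the other set 1 knockdown libraries. In set 2, JUNB was at -2.04 in JUNBi and STAT3 at -2.41 in STAT3i, the latter without an adjusted p. The 8 markers of basal breast epithelium all had a median of at least 1 TPM of coding RNA in ER-Src, where 1 of 8 did in the set 1 controls and in set 2 and 5 of 8 in the set 1 knockdowns. Their sum was 8140 to 20500 in ER-Src, 31.5 to 35.5 in the set 1 controls, 4.9 to 112 in the set 1 knockdowns and 4.09 to 12.2 in set 2, and its part in the set 1 comparisons was not tested. A leukocyte list of 3 genes summed to 14 to 40.8 in ER-Src, where CD14 had a median of 23.5 and PTPRC and CD3E had medians of 0, and to 0.751 to 7.11 in MDA-MB-231, where PTPRC was listed at 0 in every library. A fibroblast list of 3 genes summed to 109 to 1110 TPM of coding RNA in ER-Src and 0.34 to 16.8 in MDA-MB-231, and its part in any result was not tested. In ER-Src the medians were 264 for DCN, 6.86 for LUM and 0.429 for PDGFRB. In bulk RNA of this kind, fewer cells of a type and less RNA per cell cannot be told apart.

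Gene levels are given in TPM as deposited, RSEM's abundance corrected for effective gene length, with the value of both libraries, and differences between groups as DESeq2 log2 fold changes of the expected counts with their standard error (SE). A gene was called when its Benjamini-Hochberg adjusted p over all genes tested was under 0.01. The 4 knockdowns of a treatment share the same 2 control libraries. Length minus effective length was 49.0 bases in all STAT3i and JUNBi libraries and 49.5 bases in the other ER-Src libraries. Every comparison of STAT3i or JUNBi with Ctrli in ER-Src, for any gene, carries that difference as well.

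TAM against ETH in control cells changed 5 of the 9 genes, where 5.69% of all 16315 genes tested were called. The labels pair TAM with AZD0530, so effects of v-Src, tamoxifen and AZD0530 cannot be told apart. ITGA2, ITGA5, ITGB3 and ITGB6 rose and ITGB5 fell. The members had a median log2 fold change of 0.42, against -0.01 over all genes. Under TAM, YAPi changed 7 of the 9 (10.4% of all genes), TAZi 2 (2.78%), STAT3i 3 (8.22%) and JUNBi 4 (6.9%). ITGA5 was called lower in all 4. Under ETH, YAPi changed 5 of the 8 members that were tested (11.6% of all genes) and TAZi 1 of 8 (4.94%). STAT3i and JUNBi changed 0 of 8 under ETH by DESeq2 (0.173% and 2.8% of all genes) and 0 by edgeR, with 0 and 3 members under an unadjusted p of 0.05. The libraries of these 2 groups agreed least in ER-Src. The SD of the log2 ratio between them was 0.533 and 0.685, against 0.34 to 0.412 in the other groups. JUNB was at 3.9 and 8.55 TPM in JUNBi under ETH and at 11.9 and 13 TPM in Ctrli. The missing calls therefore do not show that these knockdowns acted only under TAM. ITGA5 with JUNBi under ETH (-0.81, adjusted p by DESeq2 = 0.033) was called with the replicate block (-0.83, adjusted p by DESeq2 = 0.0061).

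**Figure D1:**
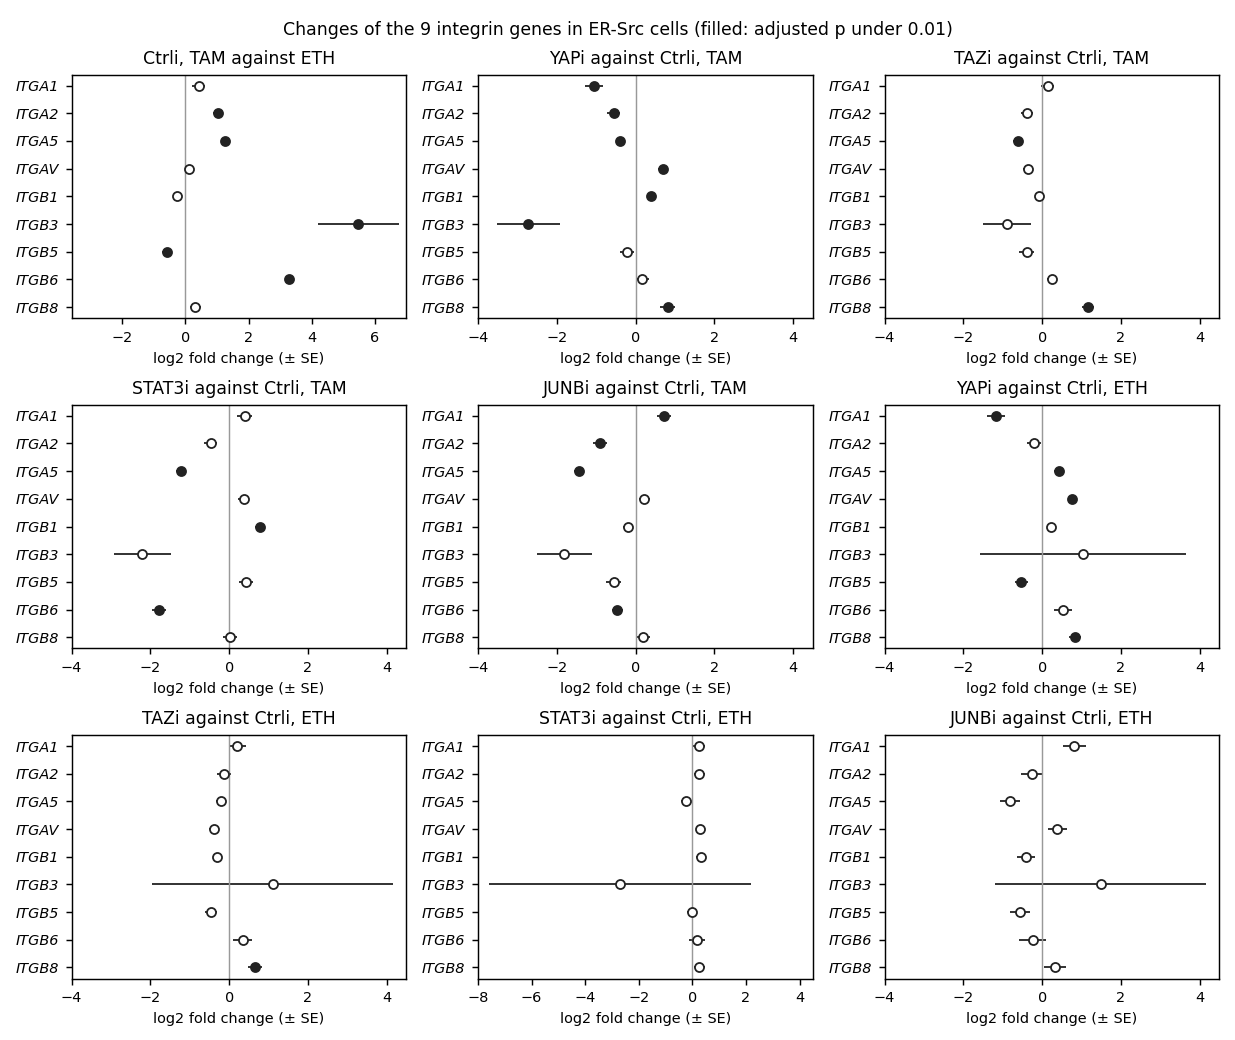
Log2 fold changes of the 9 integrin genes in ER-Src cells for each comparison, with points for the DESeq2 estimate, filled where the gene was called, and bars for its SE. ITGA5 is below 0 in all 4 knockdowns under TAM, from -0.4 in YAPi to -1.43 in JUNBi.

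The collagen-binding subunits came first in the order of roles. ITGA1 (ENSG00000213949.8, chromosome 5, 52787916 to 52959209, plus strand) encodes alpha 1. It stood at 6.14 and 3.96 TPM in the Ctrli libraries under ETH and at 6.31 and 5.41 TPM under TAM. With YAPi it was at 1.46 and 1.24 TPM under ETH and at 2.21 and 1.7 TPM under TAM. Both YAPi groups lay below every other ER-Src library. The fall was 1.18 under ETH (log2 fold change -1.18, SE 0.23, adjusted p by DESeq2 = 9.8e-06) and 1.06 under TAM (-1.06, SE 0.22, adjusted p by DESeq2 = 4e-05). The ETH call was lost without replicate 1 of Ctrli under ETH (-1.07, adjusted p by DESeq2 = 0.069). The TAM call was lost without replicate 1 or 2 of Ctrli under TAM (-1.04 each, adjusted p by DESeq2 = 0.061 and 0.035) or replicate 2 of YAPi under TAM (-0.86, adjusted p by DESeq2 = 0.1).

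JUNBi raised ITGA1 under TAM, where its libraries held 10.7 and 7.79 TPM (0.72, SE 0.18, adjusted p by DESeq2 = 0.0012). This call was kept in 3 of 11 alternatives. It was lost when any 1 of the 4 libraries was left out (0.61 to 0.84), with edgeR (0.76, adjusted p by edgeR = 0.058), with 1 fit over all groups (0.7), with the replicate block (0.72, adjusted p by DESeq2 = 0.011) and with length offsets (0.47, adjusted p by DESeq2 = 0.11). ITGA1 shares 499 of its 18545 exonic bases with PELO on the same strand, which held 116 to 1066 counts, and its effective length in Ctrli under ETH was 2738 and 3051 bases against 5211 and 4234 with YAPi. Offsets for these lengths moved the YAPi values to -1.74 under ETH and -1.53 under TAM.

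ITGA2 (ENSG00000164171.10, chromosome 5, 52989340 to 53094779, plus strand) encodes alpha 2 and lies beside ITGA1. TAM took it from 4.12 and 3.41 TPM to 7.28 and 5.1 TPM in Ctrli, and the libraries of the groups did not overlap (1.02, SE 0.16, adjusted p by DESeq2 = 1.3e-08). Without replicate 1 of Ctrli under TAM the value was 0.88 and missed the threshold (adjusted p by DESeq2 = 0.011). JUNBi under TAM brought it to 4.55 and 3.02 TPM (-0.9, SE 0.18, adjusted p by DESeq2 = 1.8e-05), and YAPi to 4.1 and 3.87 TPM (-0.56, SE 0.16, adjusted p by DESeq2 = 0.0061). The JUNBi call was lost with edgeR (-0.86, adjusted p by edgeR = 0.067, in a fit that called 27 genes in all), without replicate 1 of Ctrli under TAM (-0.76, adjusted p by DESeq2 = 0.11) and without replicate 2 of JUNBi under TAM (-0.75, adjusted p by DESeq2 = 0.021), and the YAPi call under 8 of 11 alternatives. Values for TAZi and STAT3i under TAM were -0.39 and -0.47 and were not called. Under ETH no knockdown moved ITGA2 past the threshold, with values from -0.25 to 0.26.

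ITGA5 (ENSG00000161638.10, chromosome 12, 54395261 to 54419266, minus strand) encodes alpha 5, the fibronectin receptor subunit. TAM took it from 17.8 and 15 TPM to 30.6 and 23.7 TPM in Ctrli (1.24, SE 0.11, adjusted p by DESeq2 = 1.6e-25). Its levels under TAM were 23.7 and 19.5 TPM with YAPi, 20 and 19.8 with TAZi, 16.7 and 15.1 with STAT3i and 11.7 and 11.2 with JUNBi. The STAT3i libraries overlapped those of Ctrli under ETH, and the JUNBi libraries were lower than those.

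The largest of these falls in ITGA5 was with JUNBi (-1.43, SE 0.13, adjusted p by DESeq2 = 2.4e-27), followed by STAT3i (-1.23, SE 0.13, adjusted p by DESeq2 = 8e-20). Both calls, and that of the rise under TAM, were kept in all 11 alternatives of each comparison, which included leaving out each library. No alternative separates these 2 knockdowns from the difference in length minus effective length. JUNB itself was at 14.4 and 14.9 TPM with STAT3i under TAM and at 16.4 and 18.9 TPM with JUNBi, so the 2 falls of ITGA5 are not independent. TAZi lowered it by less (-0.62, SE 0.11, adjusted p by DESeq2 = 4.6e-06), and the call was lost without replicate 1 of Ctrli under TAM (-0.56, adjusted p by DESeq2 = 0.015) and without replicate 2 of TAZi under TAM (-0.53, adjusted p by DESeq2 = 0.11). YAPi gave -0.4 (SE 0.11, adjusted p by DESeq2 = 0.0043), a call kept in only 3 of 11 alternatives. Under ETH, YAPi went the other way for ITGA5, at 16.6 and 16.7 TPM (0.42, SE 0.13, adjusted p by DESeq2 = 0.0099), a call kept in 4 of 11 alternatives. It was lost when any 1 of the 4 libraries was left out (0.34 to 0.49), with edgeR at a mean count of 10 or more (0.41, adjusted p by edgeR = 0.021), with the replicate block (0.42, adjusted p by DESeq2 = 0.038) and with offsets for effective length (0.18). JUNBi under ETH held 9.08 and 8.63 TPM of ITGA5, below both Ctrli libraries, and was not called (-0.81, SE 0.25, adjusted p by DESeq2 = 0.033), but was with the replicate block and with length offsets (-0.94, adjusted p by DESeq2 = 0.0086).

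The response of ITGA5 to TAM was compared between siRNAs. The ratio of mean normalized counts, TAM over ETH, was 2.35 with Ctrli, 1.77 with TAZi, 1.49 with JUNBi, 1.31 with YAPi and 1.17 with STAT3i. The interaction of knockdown and TAM was called for STAT3i (-1.01, SE 0.19, adjusted p by DESeq2 = 2.3e-05) and YAPi (-0.83, SE 0.15, adjusted p by DESeq2 = 3.6e-05). It was not called for TAZi (-0.42, SE 0.15, adjusted p by DESeq2 = 0.097) or JUNBi (-0.65, SE 0.26, adjusted p by DESeq2 = 0.56). With offsets for effective length the interaction values were -0.76 for STAT3i and -0.47 for YAPi and were no longer called (adjusted p by DESeq2 = 0.041 and 0.34).

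Over all 9 genes, the interaction was called for 1 member with YAPi (0.498% of all genes), for 2 of 9 with STAT3i (1.43%), for 0 of 7 with TAZi (1.6%) and for 0 of 9 with JUNBi (0.288%). In the latter 2, edgeR also called 0 members, and 2 and 3 members had an unadjusted p under 0.05.

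**Figure D2:**
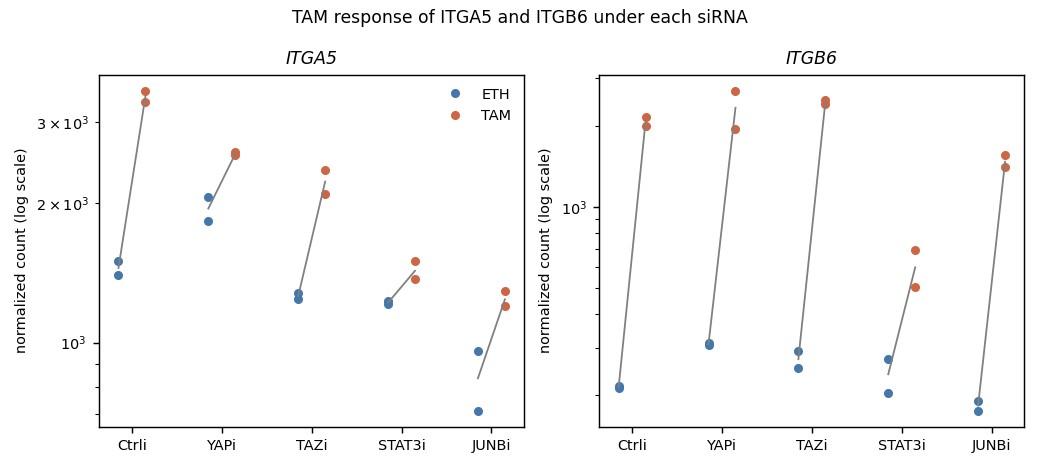
Normalized counts of ITGA5 and ITGB6 in ER-Src cells under ETH and TAM for each siRNA, on a log-scale axis, with a point per library and a line joining the 2 group means. The ITGB6 means go from 214 to 2080 with Ctrli and from 239 to 596 with STAT3i, and those of ITGA5 from 1450 to 3410 and from 1220 to 1430.

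Promoter sequence is shown for 4 of the 9 genes on which the results turn. ITGA5, ITGB6 and ITGA2 rose together under TAM, and ITGB1 rose with STAT3i. RefSeq windows of 300 bases (GRCh38.p14, 250 bases before to 50 after each start) were found for 8 of the 9 genes, in 12 windows. These were searched on both strands for the TEAD letters GGAATG, the AP-1 letters TGANTCA and the STAT letters TTCNNNGAA, which do not overlap each other in the windows shown. Over all 35116 promoter windows, 14% held the TEAD letters, 7.71% the AP-1 letters and 7.66% the STAT letters. The TEAD letters stood in 2 of the 12 member windows (ITGA5 and ITGB1), the AP-1 letters in 1 (ITGA5) and the STAT letters in 0. The stretches below run 5′ to 3′ on the gene's strand, with matches in capitals, and lie at chr12:54419257-54419366 (minus strand), chr2:160200263-160200372 (minus strand), chr5:52989252-52989361 (plus strand) and chr10:32958351-32958460 (minus strand).
ITGA5: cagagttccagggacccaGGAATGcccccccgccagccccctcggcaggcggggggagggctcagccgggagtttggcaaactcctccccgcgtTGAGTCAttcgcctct
ITGB6: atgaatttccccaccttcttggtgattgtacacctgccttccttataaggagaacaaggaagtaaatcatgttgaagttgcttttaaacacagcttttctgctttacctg
ITGA2: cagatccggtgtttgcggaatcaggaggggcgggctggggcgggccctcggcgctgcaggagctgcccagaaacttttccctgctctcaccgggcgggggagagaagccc
ITGB1: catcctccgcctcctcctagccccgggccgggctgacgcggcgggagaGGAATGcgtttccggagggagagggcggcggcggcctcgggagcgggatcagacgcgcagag
In ITGA5 the AP-1 letters ran from position -6 to 1 relative to the RefSeq start and the TEAD letters from -82 to -77. In ITGB1 the TEAD letters ran from -182 to -177. A match of letters is a description of the sequence and says nothing of binding in these cells.

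ITGAV (ENSG00000138448.11, chromosome 2, 186590010 to 186680901, plus strand) encodes alpha v, the shared partner of beta 3, beta 5, beta 6 and beta 8. TAM left it near its level in Ctrli, at 13.9 and 11.5 TPM under ETH and 12.4 and 13.5 TPM under TAM (0.11, 95% interval -0.13 to 0.35). YAPi raised it to 22.5 and 18.6 TPM under ETH (0.77, SE 0.12, adjusted p by DESeq2 = 4.3e-09) and to 22.4 and 18.3 TPM under TAM (0.69, SE 0.12, adjusted p by DESeq2 = 4.6e-07). All 4 YAPi libraries exceeded all 4 Ctrli libraries. In TPM so did the STAT3i libraries, at 18.3 and 16.5 TPM under ETH and 20.4 and 19.5 TPM under TAM. On normalized counts replicate 2 of STAT3i under ETH, at 1810, did not exceed replicate 2 of Ctrli under TAM, at 1820. Neither STAT3i nor JUNBi was called for ITGAV under either treatment. The YAPi call under ETH was kept in all 11 alternatives. The call under TAM was lost without replicate 1 of Ctrli under TAM (0.65, adjusted p by DESeq2 = 0.017).

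TAZi had the lowest ITGAV levels, at 9.9 and 9.81 TPM under TAM and 10.5 and 11.5 TPM under ETH. Its values of -0.36 and -0.38 did not pass (adjusted p by DESeq2 = 0.066 and 0.038). YAPi and TAZi thus had ITGAV values of opposite sign under both treatments, and the difference between them was not tested in ER-Src.

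ITGB1 (ENSG00000150093.18, chromosome 10, 32887273 to 33005792, minus strand) encodes beta 1, the partner of alpha 1, alpha 2 and alpha 5, and had the highest TPM of the 9 in each ER-Src library, from 98.1 to 281 TPM. Ctrli libraries held 190 and 155 TPM under ETH and 111 and 111 TPM under TAM, a difference that was not called on counts (-0.26, SE 0.09, adjusted p by DESeq2 = 0.041). STAT3i under TAM held 281 and 220 TPM (0.79, SE 0.13, adjusted p by DESeq2 = 5.1e-08), a rise called in all 11 alternatives. ITGA5 fell and its partner ITGB1 rose in the same STAT3i libraries. YAPi under TAM held 139 and 138 TPM (0.4, SE 0.1, adjusted p by DESeq2 = 0.0012), and 7 of 11 alternatives lost that call. ITGB1 with JUNBi under TAM had a value of -0.2 and was not called.

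**Figure D3:**
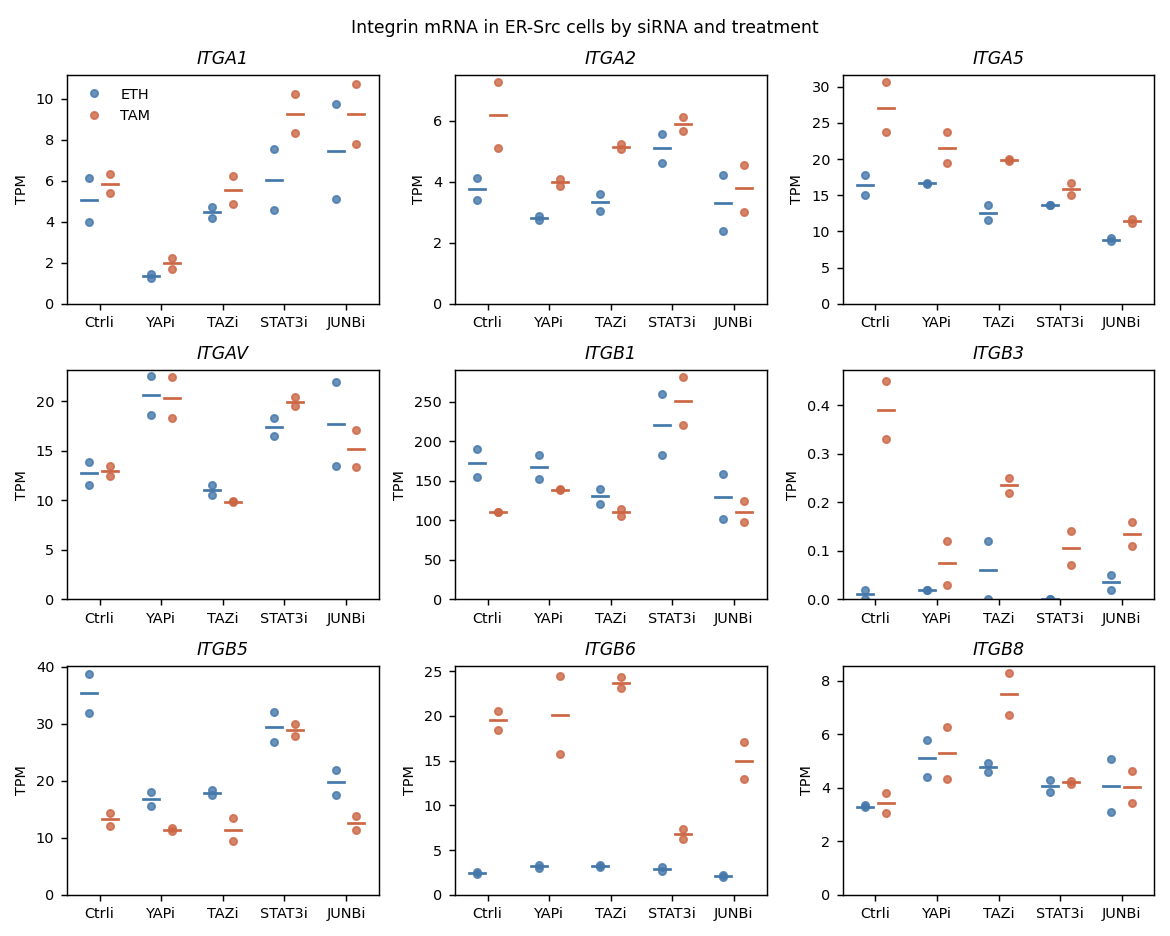
TPM of the 9 integrin genes in the 20 ER-Src libraries, 2 points per group and a line at their mean, on linear axes that start at 0. ITGB6 lies between 1.94 and 3.35 TPM in all 10 ETH libraries and between 6.26 and 24.5 TPM in all 10 TAM libraries.

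ITGB6 and ITGB3 had the largest changes of the 9 under TAM. ITGB6 (ENSG00000115221.10, chromosome 2, 160099667 to 160200313, minus strand) went from 2.49 and 2.3 TPM to 20.6 and 18.4 TPM in Ctrli (3.29, SE 0.15, adjusted p by DESeq2 = 1e-98), the smallest adjusted p of a member in any comparison. The 10 ETH libraries of all siRNAs held 1.94 to 3.35 TPM and the 10 TAM libraries 6.26 to 24.5 TPM, with no overlap. Under TAM the ITGB6 level was 7.41 and 6.26 TPM with STAT3i, 17.1 and 12.9 with JUNBi, 24.5 and 15.7 with YAPi and 23.1 and 24.4 with TAZi. Both STAT3i libraries lay below the other 8 TAM libraries.

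The fall of ITGB6 with STAT3i was 1.78 on the log2 scale (-1.78, SE 0.17, adjusted p by DESeq2 = 3.8e-23). The interaction was -1.97 (SE 0.29, adjusted p by DESeq2 = 3.2e-09) and was called in all 15 alternatives. Even so, ITGB6 remained 2.49-fold higher under TAM than ETH with STAT3i, against 9.7-fold with Ctrli, 8.98-fold with TAZi, 8.02-fold with JUNBi and 7.54-fold with YAPi. JUNBi under TAM gave ITGB6 a value of -0.47 (SE 0.14, adjusted p by DESeq2 = 0.0075) that was called in 2 of 11 alternatives. YAPi and TAZi gave 0.17 (95% interval -0.14 to 0.49) and 0.24 (0.02 to 0.46) and were not called. JUNB itself fell by 2.41 in STAT3i under TAM, and STAT3 differed by 0.28 in JUNBi without a call. Length minus effective length was 49.0 bases in all STAT3i and JUNBi libraries and 49.5 bases in the other ER-Src libraries, a difference that cannot be told apart from those 2 knockdowns.

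ITGB3 (ENSG00000259207.7, chromosome 17, 47253827 to 47313743, plus strand) encodes beta 3, the vitronectin receptor subunit of platelets and osteoclasts. It was barely detected under ETH, with 0 and 2 counts in Ctrli, and held 43 and 21 counts under TAM. Its level under TAM was 0.45 and 0.33 TPM, the lowest of the 9. Summed over the libraries, the ratio of TAM to ETH after scaling was 43.9 (95% exact interval of the counts 11.6 to 369, counting error only). DESeq2 called the rise (5.48, SE 1.27, adjusted p by DESeq2 = 0.00044), and the call was lost when any 1 of the 4 libraries was left out (4.4 to 8.02). The ITGB3 counts under TAM were 11 and 5 with YAPi, 9 and 16 with STAT3i, 13 and 19 with JUNBi and 23 and 34 with TAZi. Of these knockdowns only YAPi was called (-2.73, SE 0.8, adjusted p by DESeq2 = 0.0064), in 3 of 11 alternatives. ITGB3 shares 2266 of 6829 exonic bases with ENSG00000259753, a protein-coding gene on its strand that held 0 to 18 counts.

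ITGB5 (ENSG00000082781.11, chromosome 3, 124761948 to 124901418, minus strand) encodes beta 5, which binds vitronectin. It went from 38.7 and 31.9 TPM under ETH to 14.4 and 12.1 TPM under TAM in Ctrli. On counts the fall was smaller (-0.58, SE 0.16, adjusted p by DESeq2 = 0.0058), and the call was lost in the fit with the replicate block and when any 1 of the 4 libraries was left out (-0.46 to -0.71). The effective length of ITGB5 was 1023 and 1114 bases under ETH and 1441 and 1930 bases under TAM, so the TPM and count scales differ. With offsets for these lengths the fall was 1.13 (-1.13, adjusted p by DESeq2 = 1.1e-09).

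ITGB5 with STAT3i was at 27.9 and 29.9 TPM under TAM, above the 12.1 to 14.4 TPM of Ctrli. Its count value of 0.43 (SE 0.17, adjusted p by DESeq2 = 0.073) was not called, whereas with length offsets it was 0.78 (adjusted p by DESeq2 = 0.00035). The ITGB5 interaction with STAT3i likewise was 0.43 without and 1.13 with the offsets (adjusted p by DESeq2 = 0.75 and 0.00096). YAPi under ETH lowered ITGB5 to 15.6 and 18 TPM (-0.53, SE 0.16, adjusted p by DESeq2 = 0.0079), a call kept in 5 of 11 alternatives. TAZi under ETH held 18.4 and 17.5 TPM, below both Ctrli libraries, and was not called on counts (-0.47, SE 0.15, adjusted p by DESeq2 = 0.022), but was with length offsets (-0.97, adjusted p by DESeq2 = 3e-07).

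ITGB8 (ENSG00000105855.9, chromosome 7, 20330702 to 20415754, plus strand) encodes beta 8, a receptor subunit for latent TGF-beta. TAM did not move it past the threshold in Ctrli, from 3.34 and 3.27 TPM to 3.82 and 3.06 TPM (0.32, 95% interval -0.03 to 0.67). TAZi raised it to 6.73 and 8.31 TPM under TAM (1.16, SE 0.15, adjusted p by DESeq2 = 2e-12), in all 11 alternatives, and to 4.94 and 4.61 TPM under ETH (0.65, SE 0.17, adjusted p by DESeq2 = 0.0028), in 5 of 11 and not with length offsets (0.53) or when any 1 of the 4 libraries was left out (0.55 to 0.73). YAPi raised it as well, to 6.28 and 4.34 TPM under TAM (0.81, SE 0.18, adjusted p by DESeq2 = 9.6e-05) and 5.79 and 4.4 TPM under ETH (0.83, SE 0.16, adjusted p by DESeq2 = 1e-05). Each YAPi call was kept in 8 of 11 alternatives. Under TAM it was lost without replicate 1 or 2 of Ctrli (0.92 and 0.74) or replicate 1 of YAPi (0.64), and under ETH without replicate 1 or 2 of Ctrli (0.84 and 0.8) or replicate 1 of YAPi (0.68). ITGB8 was the one member called higher in all 4 YAPi and TAZi comparisons of ER-Src. STAT3i and JUNBi left it uncalled, with values of 0.01 to 0.33.

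The makeup of the alpha v partners was described by shares among ITGB3, ITGB5, ITGB6 and ITGB8. ITGB1, which also pairs with alpha v and exceeded each of them in TPM, was left out of these shares. Of the summed TPM of ITGB3, ITGB5, ITGB6 and ITGB8 in Ctrli, ITGB5 made up 86.0% ± 1.3 (SD, n = 2) under ETH and 36.2% ± 0.705 under TAM. ITGB6 made up 5.86% ± 0.39 under ETH and 53.4% ± 1.29 under TAM. ITGB8 made up 8.11% and 9.37%. ITGB6 therefore exceeded ITGB5 under TAM and not under ETH in control cells.

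With STAT3i under TAM, ITGB5 made up 72.2% ± 2.25, ITGB6 17.1% ± 2.34 and ITGB8 10.5%, so that ITGB5 exceeded ITGB6 as under ETH. The ITGB6 share under TAM was 53.9% ± 5.13 with YAPi, 55.3% ± 3.03 with TAZi and 47.2% ± 1.19 with JUNBi. Counted in expected counts, which do not divide by length, the ITGB6 share in Ctrli was 11.8% under ETH and 59.2% under TAM. The summed TPM of the 4 partners was 3.23 times that of ITGAV in Ctrli under ETH, 2.84 times under TAM, and 1.23 times with YAPi under ETH.

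**Figure D4:**
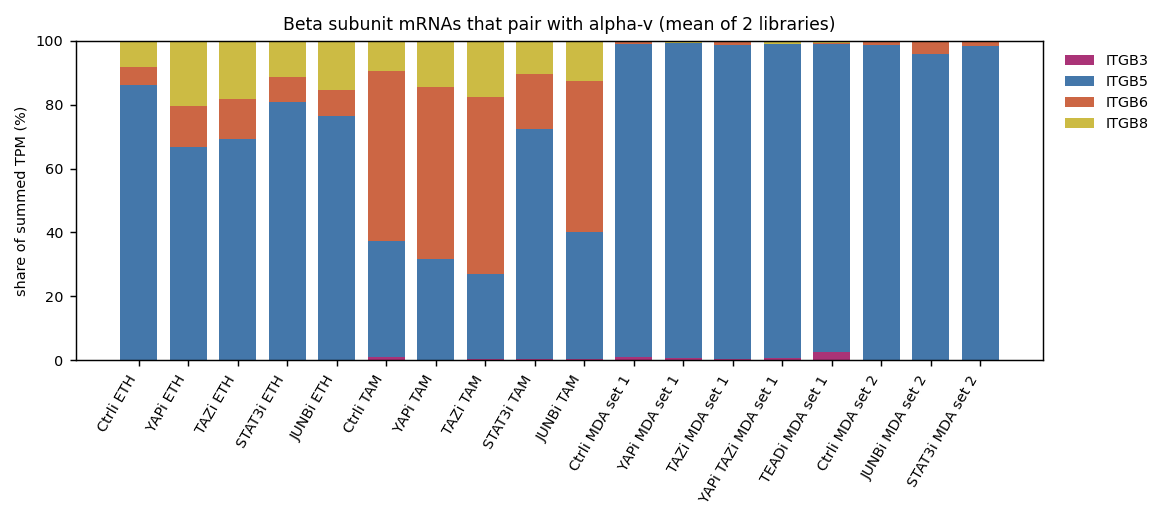
Share of the summed TPM of ITGB3, ITGB5, ITGB6 and ITGB8 held by each, in percent, as the mean of 2 libraries per group. ITGB5 holds 86.0% in Ctrli under ETH and 36.2% under TAM, 72.2% in STAT3i under TAM, and 95.8% or more in every MDA-MB-231 group.

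Ordered by mean TPM, the 10 ER-Src groups differed little between neighbours. ITGB6 had 5 of 9 neighbouring pairs whose libraries did not overlap, ITGA5 had 3, ITGB1 had 1 and the other 6 genes had 2 each. Ctrli under TAM headed the order for ITGA2, ITGA5 and ITGB3, TAZi under TAM for ITGB6 and ITGB8, JUNBi under TAM for ITGA1, YAPi under ETH for ITGAV, STAT3i under TAM for ITGB1 and Ctrli under ETH for ITGB5. JUNBi under ETH was the lowest group for ITGA5 and ITGB6.

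Over the 20 ER-Src libraries, among the 10080 genes whose mean count was 100 or more, the gene whose log2 normalized count ran closest to each member was ERP29 for ITGA1 (r = 0.93), FMNL2 for ITGA2 (0.96), DNER for ITGA5 (0.956) and RBM18 for ITGAV (0.958). For the beta subunits it was MTHFD2L for ITGB1 (0.94), PFKP for ITGB5 (0.971), HIF1A for ITGB6 (0.98) and SLC39A6 for ITGB8 (0.927). ITGB3 was too low to be included. Points of these correlations share treatments and libraries, and they are descriptions across 20 libraries. Between members, ITGA5 and ITGB6 had r = 0.721 over the 20 libraries, 0.651 within the 10 TAM and 0.705 within the 10 ETH libraries. ITGA2 and ITGA5 had 0.696, with 0.778 within TAM and -0.041 within ETH. ITGA2 and ITGB6 had 0.738, with 0.216 and 0.101 within the treatments.

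Other genes of the pathway were taken from lists of 17 further integrins, 29 adhesion adaptors and 22 ligands. With TAM in Ctrli, where 5.69% of all genes were called, 2 of 10 further integrins that were tested were called, 1 higher (ITGB4, the hemidesmosome subunit, 0.6) and 1 lower (ITGA10, a collagen receptor subunit, -1.36). Of the adaptors 3 of 28 were called, 2 higher, BCAR1 (1.42) and PXN (0.91), both scaffold proteins phosphorylated by Src, and 1 lower, KANK1 (-0.53), a talin-binding protein named here after its value was seen. Of the ligands 6 of 17 were called, 5 of them higher. TNC, the gene of tenascin-C, a ligand of alpha v beta 6, rose from 0.48 to 24.2 TPM (6.78), and THBS1, the gene of thrombospondin-1, fell from 129 to 35.8 TPM (-1.33).

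With STAT3i under TAM (8.22% of all genes called), 7 of 16 ligands were called, 5 lower, with TNC at 1.68 TPM (-4.39) and THBS1 at 130 TPM (1.46). TNC and ITGB6, a ligand and its receptor subunit, thus both rose with TAM and both fell with STAT3i. TNC also fell under TAM with JUNBi (-1.52) and with YAPi (-1.22), where ITGB6 had values of -0.47 and 0.17. ITGA3, which pairs with beta 1 to bind laminin, fell with STAT3i (-0.62) and with JUNBi (-0.64) under TAM. JUNBi (6.9% of all genes called) also lowered 5 and raised 1 of 24 adaptors, with PXN at -1.31 and BCAR1 at -1.19. Under ETH, YAPi raised FN1, the fibronectin gene, from 26.2 to 74.7 TPM (1.59) along with ITGB4 (0.63) and ITGA3 (0.49).

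In MDA-MB-231 the 9 genes had other levels, compared here in TPM rescaled to protein-coding genes because coding RNA made up 20.2% to 28.9% of TPM in ER-Src and 94.5% in the set 1 controls. ITGB6 held 0 to 16 counts per library and ITGB8 0 to 30, while ER-Src libraries held at least 175 and 312. ITGB5 made up 95.8% to 98.7% of the summed TPM of ITGB3, ITGB5, ITGB6 and ITGB8 in all 8 groups, with ITGB1 left out. Between the control groups of the line the levels also differed. ITGA2 was at 66.3 ± 0.224 in the set 1 controls and 1.55 ± 0.938 in the set 2 controls, ITGB1 at 647 and 83.8, ITGAV at 22.7 and 3.94 and ITGA5 at 143 and 40. Levels set across sets therefore carry the set as well as the cell line.

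The set 1 knockdowns differed from their controls in library kind. The 7 RNAs without a poly(A) tail took 8.71% to 11.8% of counts in the knockdowns and at most 0.0112% in the controls and set 2, so the knockdown and the library kind cannot be told apart in those comparisons. Against Ctrli, YAPi changed 3 of 8 members (24.6% of all genes), TAZi 5 of 9 (32.6%), YAPi_TAZi 6 of 9 (35.5%) and TEADi 5 of 9 (27.4%). ITGAV was called higher in all 4, by 1.99, 0.7, 1.3 and 2.09, and ITGB1 in all 4 as well, by 0.6, 0.47, 0.57 and 0.32. The ITGAV call was kept in 11, 8, 11 and 12 of 12 alternatives. With TAZi it was lost with edgeR, with the controls of both sets and without replicate 1 or 2 of Ctrli (0.74 and 0.61). With YAPi it was lost with edgeR, and with YAPi_TAZi with the controls of both sets. The ITGB1 call was kept in 9, 10, 10 and 4 of 12 alternatives. It was lost without replicate 1 of Ctrli for YAPi (0.57) and TEADi (0.28), and for TEADi also without replicate 2 of Ctrli (0.32) or of TEADi (0.14). With TMM scaling the median of all genes moved by -0.105 to -0.118 in these comparisons. With the controls of both sets as reference, 1, 0, 1 and 1 members were called, and ITGA2 went from -0.85 to 0.18 in TAZi and from -0.93 to 0.11 in YAPi_TAZi.

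Each set 1 knockdown was therefore also compared with the other 3 knockdowns, which were of the same library kind. Replicate 1 and replicate 2 of these groups differed in length minus effective length (48.0 and 74.6 bases), and same-numbered libraries deviated together (r = 0.476 to 0.52), so values with the replicate number as a block are given too. YAPi changed 3 of 6 tested members (6.83% of all genes), TAZi 2 of 8 (5.99%), YAPi_TAZi 0 of 8 (6.13%) and TEADi 3 of 7 (7.89%). With the block the counts were 4, 3, 4 and 5, where 11.3%, 9.73%, 10.1% and 11.1% of all genes were called. For YAPi_TAZi, edgeR called 2 and 4 members had an unadjusted p under 0.05. The 4 comparisons share libraries.

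ITGAV was lowest with TAZi. Its levels in coding TPM were 110 and 147 with YAPi, 125 and 148 with TEADi, 104 and 87.3 with YAPi_TAZi and 55.3 and 52.3 with TAZi, and the YAPi and TEADi libraries overlapped. Against the other knockdowns it was lower with TAZi (-1.08, SE 0.13, adjusted p by DESeq2 = 8.3e-14) and higher with TEADi (0.76, SE 0.13, adjusted p by DESeq2 = 8.7e-08), each kept in all 8 alternatives. YAPi was higher too (0.61, SE 0.13, adjusted p by DESeq2 = 4.6e-05), but the call was lost without replicate 2 of YAPi (0.44, adjusted p by DESeq2 = 0.14) and with length offsets. Within replicate 1 the log2 ratio was -1.04 for TAZi, 0.75 for TEADi and 0.52 for YAPi, and within replicate 2 it was -1.16, 0.77 and 0.68.

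ITGA2 was higher with TEADi, at 128 and 144 coding TPM against 42.5 to 58.5 in the other 6 knockdown libraries (1.38, SE 0.12, adjusted p by DESeq2 = 3.9e-27). The ratio was 1.41 within replicate 1 and 1.35 within replicate 2 on the log2 scale, and 8 of 8 alternatives kept the call. YAPi was lower for ITGA2 (-0.64, SE 0.13, adjusted p by DESeq2 = 3.2e-05), a call lost without replicate 1 of YAPi (-0.52, adjusted p by DESeq2 = 0.042) and with length offsets. ITGA5 was lower with TAZi, at 90.6 and 80.8 coding TPM against 121 to 180 in the others (-0.68, SE 0.14, adjusted p by DESeq2 = 2.4e-05). The ITGA5 call with TAZi was lost without replicate 1 or 2 of TAZi (-0.76 and -0.6, adjusted p by DESeq2 = 0.011 and 0.12). TEADi was higher for ITGA5 (0.58, SE 0.13, adjusted p by DESeq2 = 0.00029), and that call was lost without replicate 1 of TEADi (0.47, adjusted p by DESeq2 = 0.24).

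ITGA1 differed between YAPi, at 20.5 and 18.8 coding TPM, and YAPi_TAZi, at 38.6 and 31.5 coding TPM. YAPi was called lower at the edge of the threshold (-0.77, SE 0.23, adjusted p by DESeq2 = 0.01 after rounding), in 2 of 8 alternatives. YAPi_TAZi was not called without the block (0.71, SE 0.21, adjusted p by DESeq2 = 0.013) and was called with it (0.72, adjusted p by DESeq2 = 0.0025). The block also added calls for ITGB5 in YAPi (-0.35) and YAPi_TAZi (0.42), for ITGA2 in TAZi (-0.32) and YAPi_TAZi (-0.43), for ITGAV in YAPi_TAZi (-0.29), and for ITGB1 (-0.22) and ITGB3 (2.04) in TEADi. ITGB3 held 20 and 27 counts with TEADi and 2 to 8 in the other knockdown libraries, which did not overlap.

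**Figure D5:**
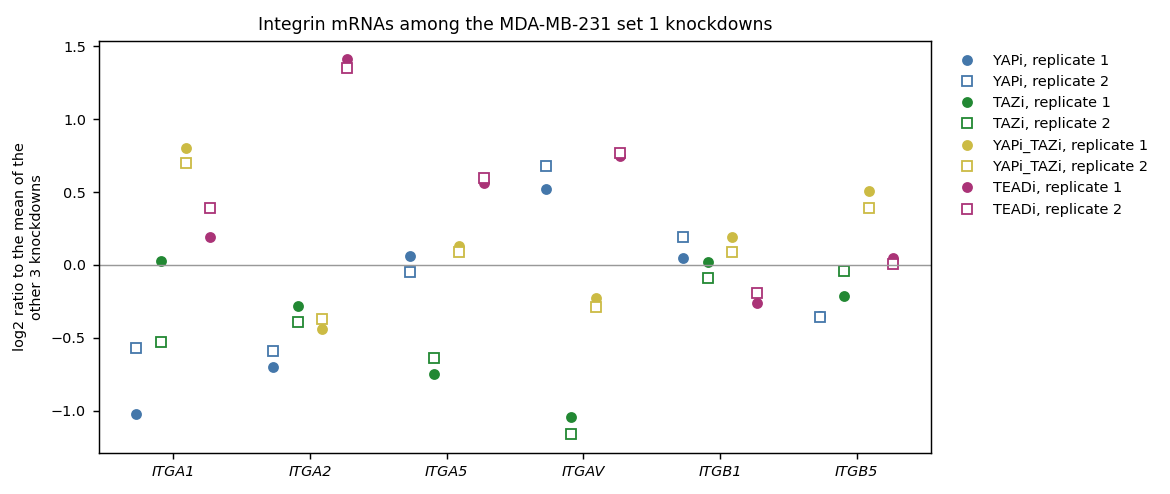
Log2 ratio of each MDA-MB-231 set 1 knockdown to the other 3 for the integrin genes, with 1 point per replicate number. ITGA2 with TEADi lies at 1.41 and 1.35 and ITGAV with TAZi at -1.04 and -1.16.

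In set 2, JUNBi changed 0 of 5 tested members (3.41% of all genes) and STAT3i 0 of 3 (0.497%) by DESeq2, with 0 by edgeR and 0 at an unadjusted p under 0.05 in both. Few genes were tested in these comparisons, 7966 with JUNBi and 2013 with STAT3i. The set 2 controls also agreed least of all groups, with an SD of 0.736 for the log2 ratio between their libraries. ITGAV held 159 to 405 counts and ITGA2 58 to 259 in the 6 libraries. What limited the calls was not tested, and the missing calls say little about any member. ITGA5, at 37.3 and 38 TPM in Ctrli, was at 50.1 and 62.8 TPM with JUNBi (0.3, 95% interval -0.07 to 0.66) and 41.2 and 45 TPM with STAT3i (0.04, -0.32 to 0.4). Both intervals lie above the ER-Src values of -1.43 and -1.23 under TAM, though the lines were fitted apart and the difference was not tested. ITGB6, which fell with STAT3i in ER-Src, had 4 and 0 counts in Ctrli and 2 and 4 with STAT3i.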

How the data were processed

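Total RNA of human breast cell lines was sequenced by the authors with a TruSeq Ribo Profile kit, aligned with STAR to the GENCODE version 30 transcriptome (hg38, up to 20 alignments per read) and quantified with RSEM. The authors deposited, per library, RSEM expected counts (estimated read numbers, not normalized) and TPM (divided by effective length and scaled to a fixed total). The strand setting is not given in the sources used here. Of 61471 identifiers, 60725 Ensembl genes were kept, and the 746 others held at most 0.109% of counts.

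Symbols and coordinates came from GENCODE version 44 (93.1% matched). Expected counts were rounded and tested in DESeq2 1.42.0 (R 4.3.3), 1 run per comparison, after the study's design, with an adjusted p under 0.01 as a call. Adjusted p-values are DESeq2's over all genes tested, and a gene without one was not tested. Of the 20 ER-Src and 16 MDA-MB-231 libraries none was left out. Intervals of log2 values are 95% Wald intervals. Depth was 1411304 to 19161700 expected counts, and counting intervals cover counting error only. Alternatives were edgeR 4.0.16 quasi-likelihood, TMM, a mean count of at least 10, offsets for effective length, 1 fit over all groups, the replicate block, the controls of both sets and leaving out each library. Scripts were tested on simulated data.

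Pairing was checked by the correlation of deviations from group means, which was 0.476 to 0.52 between the set 1 knockdowns and -0.024 to -0.009 between these and their controls. Named genes were the 9 members, the 2 genes closest to each in pattern (1 is given), and, of each list in each comparison, up to 2 called genes with the largest change and a mean count of at least 100. Members, lists and rules were chosen with earlier results of these data known.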

Additional observations from a re-analysis of the deposited data

Results flagged for a closer look

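A difference between groups under the same contrast set apart 3 results by a test of the difference itself. In ER-Src cells the knockdown effect differed between TAM and ETH for ITGA5 with YAPi (-0.83, log2 scale), for ITGA5 with STAT3i (-1.01) and for ITGB6 with STAT3i (-1.97), as DESeq2 interaction terms called under 0.01. The ITGB6 term was called in all 15 alternatives. Each ITGA5 term was kept in 13 of 15 and lost with length offsets and with edgeR at a mean count of at least 10.

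On normalized counts, in 5 further cases every library moved one way in ER-Src under TAM and the opposite way in MDA-MB-231, and these differences were not tested. In TPM of coding RNA 2 of the 5 did so, ITGAV with TAZi and ITGA2 with STAT3i. The MDA-MB-231 value minus the ER-Src value was 1.07 for ITGAV and 0.44 for ITGB5 with TAZi, where the set 1 controls are of another library kind. Against the other set 1 knockdowns, which share its library kind, ITGAV was lower with TAZi (log2 ratio -1.04 and -1.16 in replicates 1 and 2). For set 2 it was -0.7 for ITGAV with JUNBi, 1.19 for ITGA2 with STAT3i and -0.52 for ITGB5 with STAT3i.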

How the results depend on the processing

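Calls of ITGA5 and ITGB6 under TAM against ETH, of ITGB8 with TAZi, of ITGA5, ITGB1 and ITGB6 with STAT3i and of ITGA5 with JUNBi under TAM, of ITGAV with YAPi under ETH and of the ITGB6 interaction with STAT3i were kept in all alternatives of their comparisons. None of these alternatives separates STAT3i or JUNBi in ER-Src from the difference in length minus effective length. The number of members called moved elsewhere, and the cause was not tested. For YAPi under TAM the 7 calls became 3 with edgeR at a mean count of at least 10 (chosen after seeing the data), 3 with effective length offsets, 4 with 1 fit over all groups and 3 with the replicate block. For TAZi under TAM the 2 became 4 with edgeR and 1 with edgeR at that count minimum, and for JUNBi under TAM the 4 became 1 with edgeR and 2 with the replicate block. Under ETH, YAPi went from 5 to 3 with edgeR at the count minimum and to 3 with the replicate block, TAZi from 1 to 2 with edgeR and to 0 with the block, and JUNBi from 0 to 1 with length offsets, 3 with 1 fit and 1 with the block. The interaction of YAPi went from 1 to 0 with edgeR at the count minimum and to 0 with length offsets, and that of STAT3i from 2 to 1 with edgeR at the count minimum. Replicate numbers in ER-Src are only shared numbers (r = -0.059 to 0.3), and the block gave 4 calls for TAM against ETH.

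In MDA-MB-231 set 1 against its controls, edgeR gave 0 calls for YAPi, 1 for TAZi, 3 for YAPi_TAZi and 1 for TEADi, the replicate block gave 3 for TEADi, and the controls of both sets gave 1, 0, 1 and 1. ITGA2 reversed with those controls, to 0.18 in TAZi and 0.11 in YAPi_TAZi. Against the other knockdowns, length offsets gave 0 for YAPi, edgeR 2 and the replicate block 4 for YAPi_TAZi, and the block 5 for TEADi. In set 2 no replicate block was fitted, because its controls and knockdowns share no replicate numbers. The share of ITGB6 in Ctrli under TAM was 59.2% by counts. The gene closest in pattern stayed first for 3 of 8 members with log2(TPM + 1), 3 with log2(TPM + 0.1), 1 over the TAM and 2 over the ETH libraries.

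Leaving out 1 library left a group of 1, assumed to vary like the others. The members called then ranged from 2 to 3 for TAM against ETH, from 0 to 3 for YAPi, 1 to 2 for TAZi, 3 to 3 for STAT3i and 1 to 2 for JUNBi under TAM, and from 1 to 4, 0 to 0, 0 to 1 and 0 to 4 under ETH. Without replicate 1 of Ctrli under TAM, YAPi had 0 calls, and without replicate 2 of JUNBi under ETH, JUNBi had 4. The interactions ranged from 1 to 1 for YAPi, 0 to 0 for TAZi, 2 to 3 for STAT3i and 0 to 1 for JUNBi. In set 1 against controls the range was 2 to 3 for YAPi, 3 to 4 for TAZi, 3 to 5 for YAPi_TAZi and 1 to 6 for TEADi, against the other knockdowns 1 to 1, 1 to 1, 0 to 0 and 2 to 3, and in set 2 it was 0 to 0. With 2 libraries a group, a missing call does not show an equal level, least of all for ITGB3, ITGB6 and ITGB8 in MDA-MB-231.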

Other observations

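Genes of the ligand list also differed with JUNBi. TGFB2, which the ligand list holds although its latent form lacks the integrin-binding motif known from TGFB1 and TGFB3, rose with JUNBi from 2.27 to 10.4 TPM under TAM (1.8, SE 0.24, adjusted p by DESeq2 = 6.7e-12) and from 1.52 to 6.79 TPM under ETH (2.03, SE 0.33, adjusted p by DESeq2 = 2.3e-07). POSTN, the gene of periostin, fell from 10.7 to 4.75 TPM with JUNBi under ETH (-1.37, SE 0.28, adjusted p by DESeq2 = 0.00013). CCN1, a matrix protein bound by alpha v integrins, fell under TAM with YAPi (-1.29) and with TAZi (-0.81) and rose with STAT3i (0.7), and its interaction with YAPi was called (-1.31, adjusted p by DESeq2 = 5.6e-07). LTBP1, which tethers latent TGF-beta to the matrix, was called lower under TAM with each knockdown. Its values were -1.28 with JUNBi, -0.67 with STAT3i, -0.59 with TAZi (from 36 to 24.1 TPM) and -0.4 with YAPi. ITGB8 was called higher under TAM with TAZi and YAPi only.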
